A study of Rattus norvegicus with 6 samples.

Results

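The S100a genes encode small proteins of a calcium-binding family. By gene symbol 9 of these genes were named: S100a8, S100a9, S100a4, S100a6, S100a10, S100a11, S100a13, S100a14 and S100a16. Rows with these symbols were found for 8 of the 9, among 14405 listed protein-coding genes, and S100a14 was not analysed here. All 8 lie on chromosome 2 in the deposited tables. RNA-seq of rat dorsal tongue epithelium, described by the submitters as circumvallate papilla tissue, compared 3 libraries from rats without periodontitis (control) with 3 from rats with chronic periodontitis, a lasting inflammation of the tissue that holds the teeth. The sources used here give no strain, age, sex or way in which periodontitis arose. Nothing in the labels ties each library to its own animal, so the p-values reflect only how these libraries vary, and that variation may be technical.

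S100 proteins carry a pair of EF-hand loops, which bind calcium in most of them, and most act as dimers that change shape with calcium. S100a8 and S100a9 form calprotectin, an antimicrobial, metal-chelating complex that is abundant in neutrophils and is also made by stressed or inflamed epithelium. S100a10 and S100a11 bind annexins at membranes. S100a4 and S100a6 are found in stromal and many other cells, S100a13 takes part in the export of proteins that lack a signal peptide, and S100a16 is widespread in epithelia. Most of these genes are clustered beside the genes of the epidermal differentiation complex, which encode the cornified envelope of stratified epithelium.

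The deposited values are FPKM, fragment counts normalised to transcript length and to the size of the library. Library sums ran from 611713 to 660619 FPKM. Without read counts the depth is unknown and no counting interval could be given. Marker genes showed stratified tongue epithelium (Krt13 at 4068 to 10164 FPKM), von Ebner gland (Lipf at 30886 to 93161 FPKM) and skeletal muscle (Mb at 185 to 1011 FPKM) in all 6 libraries. The samples were therefore of mixed tissue, and in such bulk samples fewer cells of a type and less RNA per cell cannot be told apart. The mixture differed between the periodontitis libraries. The 4 gland genes summed to 95541 FPKM in periodontitis 1, 143628 in periodontitis 2 and 268173 in periodontitis 3, against 159963 to 185414 in controls. The 9 muscle genes summed to 930.8, 2297 and 2769.9 FPKM in periodontitis 1 to 3, below the 3359 to 4713 of the controls, and the part of this difference in tissue in any result was not tested. The log2 values of the libraries correlated at 0.966 to 0.980 within controls and at 0.893 to 0.957 within periodontitis. No 2 libraries held the same values.

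The comparison asked whether the S100a genes differ between periodontitis and control tissue. The calprotectin genes S100a8 and S100a9 were high in 2 of the 3 periodontitis libraries and within or below the control range in the other. The 6 other S100a genes had similar means in both groups, and 5 of those 6 were lowest in periodontitis 3, as were 39.4% of all tested genes. In limma on log2(FPKM + 1), adjusted over the 13154 genes that reached 1 FPKM in 3 or more libraries, 0 of the 8 S100a genes passed an adjusted p of 0.05. Over all tested genes 0 passed (0%). Without adjustment, 0 of the 8 and 278 of all tested genes (2.11%) had a p under 0.05. In none of the 8 did all periodontitis libraries lie on one side of all controls, which occurred in 731 of all tested genes (5.56%, with 3.59% lower and 1.97% higher in periodontitis). The highest of the 6 libraries was periodontitis 1 for 3 of the 8 (27.8% of all tested genes) and periodontitis 2 for 2 of the 8 (22.2%). The median log2 difference, periodontitis minus control, was -0.05 over the 8 genes and -0.03 over all tested genes.

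**Figure D1:**
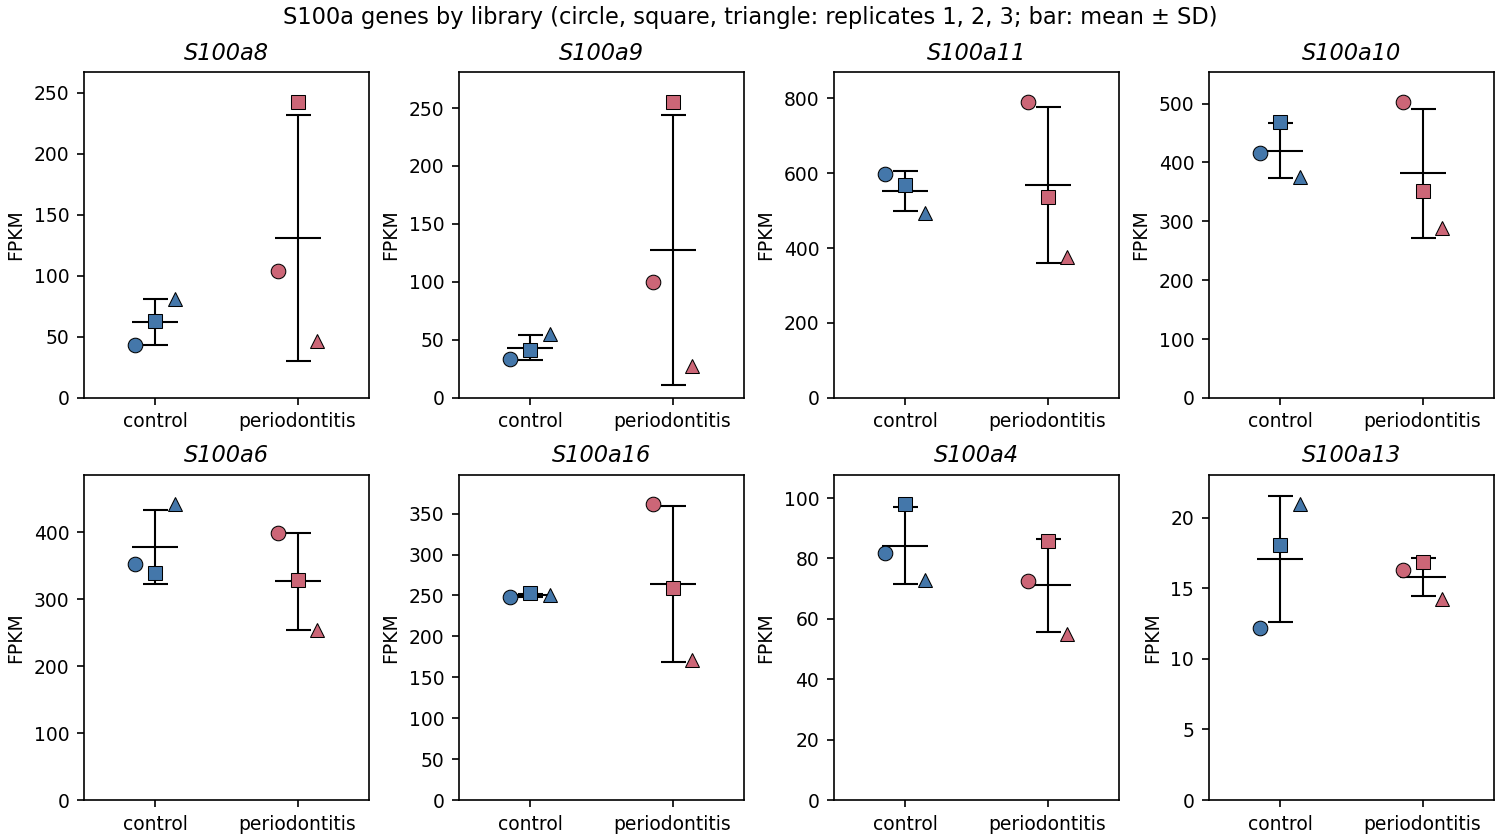
FPKM of the 8 S100a genes in each library, with 1 panel per gene, an axis that starts at 0, points for replicates 1 to 3 and bars for the mean ± SD of 3 libraries. S100a8 and S100a9 reach 242 and 255 FPKM in periodontitis 2, and the groups overlap for all 8 genes.

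S100a9, the larger subunit of calprotectin, lies on the minus strand of chromosome 2 (190097554 to 190100276 in the deposited tables, whose rat build the sources used here do not name). It had 33.5, 41.3 and 54.8 FPKM in controls 1 to 3, and 99.7, 255 and 27.5 FPKM in periodontitis 1 to 3. Periodontitis 1 and 2 were thus above all controls, and periodontitis 3 was the lowest of the 6 libraries. Against the control mean of 43.2 ± 10.8 FPKM (SD, n = 3), these were 2.31-fold, 5.91-fold and 0.638-fold. The periodontitis mean was 128 ± 116 FPKM (SD, n = 3), so the SD was close to the mean. The log2 difference was 1.06 ± 0.70 (SE, limma adjusted p = 1.0).

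S100a8, the smaller subunit, lies on the plus strand (190073815 to 190074354). It had 43.3, 62.9 and 81.0 FPKM in controls and 104, 242 and 46.6 FPKM in periodontitis 1 to 3. As for S100a9, periodontitis 2 was highest, periodontitis 1 second, and periodontitis 3 fell among the lower controls. The means were 62.4 ± 18.9 and 131 ± 101 FPKM (SD, n = 3), and the log2 difference was 0.80 ± 0.55 (SE, limma adjusted p = 1.0). The highest and lowest periodontitis libraries differed 5.21-fold for S100a8 and 9.27-fold for S100a9, against 1.87-fold and 1.64-fold among controls. Without periodontitis 2, the log2 differences were 0.20 for S100a8 and 0.31 for S100a9 (limma unadjusted p = 0.650 and 0.594). Without periodontitis 3 they were 1.38 and 1.89, with limma unadjusted p of 0.0120 and 0.00268 and an adjusted p of 0.591 for both. In that fit 1011 of 13018 tested genes had an unadjusted p under 0.05. Leaving out the periodontitis library without a rise favours a small p, so these p-values cannot decide whether the genes rose.

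Calprotectin genes held 4.30%, 5.64% and 7.58% of the summed FPKM of the 8 S100a genes in controls 1 to 3. They held 8.69%, 24.0% and 6.0% in periodontitis 1 to 3, so that in periodontitis 2 each of the pair was near the level of S100a16. S100a8 exceeded S100a9 in the 3 controls and in periodontitis 1 and 3, and S100a9 exceeded S100a8 in periodontitis 2. The log2 ratio of S100a8 to S100a9, each with 1 FPKM added, was 0.36, 0.59 and 0.56 in controls and 0.06, -0.07 and 0.74 in periodontitis 1 to 3. The ratio was lowest in the 2 libraries with the most calprotectin RNA. The group difference of -0.26 had an exact permutation p of 0.4 (two-sided, n = 3 each), and 3 against 3 libraries cannot go below 0.1.

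**Figure D2:**
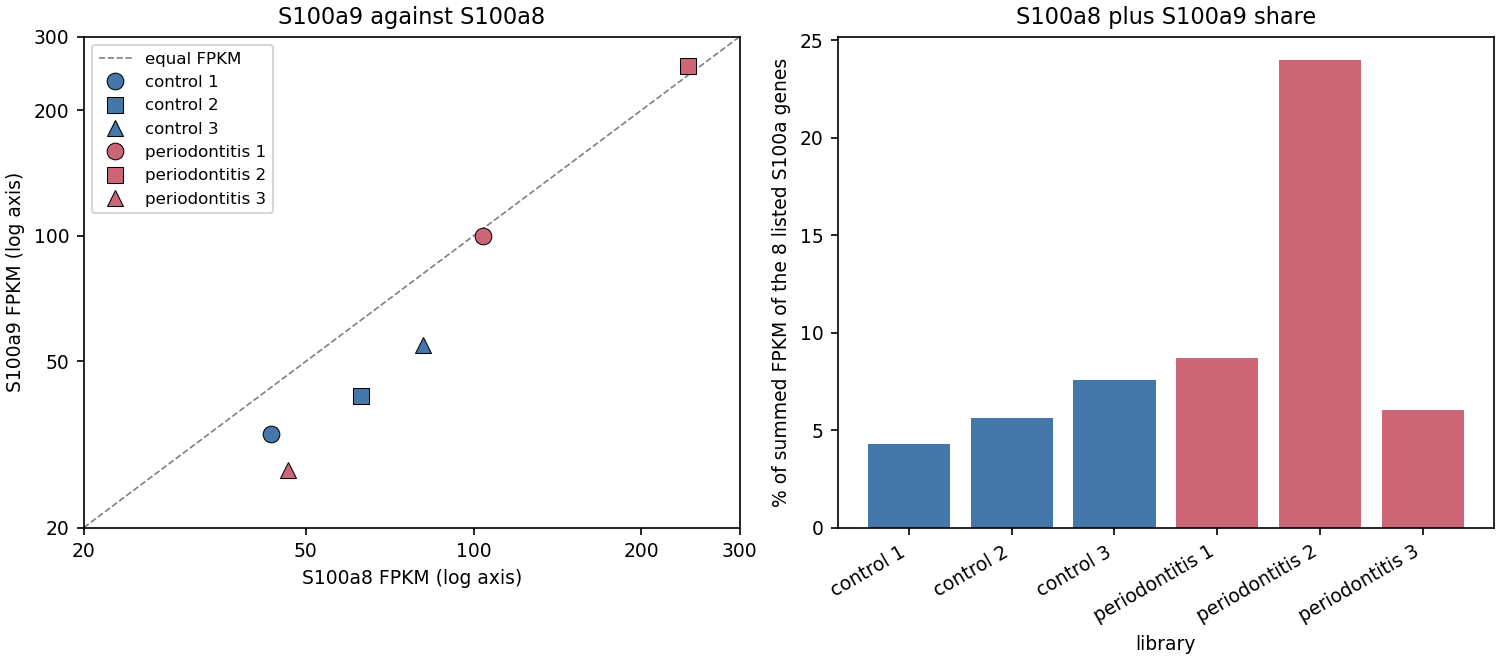
Left, S100a9 against S100a8 FPKM for the 6 libraries on log axes, with a dashed line at equal values. Right, the summed FPKM of S100a8 and S100a9 as a percent of that of the 8 S100a genes. Periodontitis 2 stands at 24.0%, against 4.30% to 7.58% in controls, and it is the library above the line of equal values.

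Marker genes were set beside the calprotectin values. Of 23 neutrophil genes, 9 were analysed here and 7 passed the filter on low values. Elane, Mpo, Csf3r and 11 others were not analysed here. The 8 analysed genes other than Lcn2, which epithelium and gland also express, summed to 40.5 to 75.6 FPKM in controls. Their sums were 32.1, 40.3 and 35.4 FPKM in periodontitis 1 to 3. By this sum the libraries with high S100a9 were not above the controls. Retnlg alone had 48.0 FPKM in control 3. With Lcn2 the 9 genes summed to 230.9 to 253.06 FPKM in controls and 258.4, 253.12 and 161.8 FPKM in periodontitis 1 to 3. By that sum periodontitis 1 and 2 were above all controls, periodontitis 2 only just. Lcn2 itself had 171.4 to 212.5 FPKM in controls and 226.3, 212.8 and 126.4 FPKM in periodontitis. Single marker genes named here and below were chosen after their values were seen. Cxcr2, a neutrophil chemokine receptor, had 2.47 to 4.12 FPKM in controls and 7.28, 4.08 and 1.36 FPKM in periodontitis 1 to 3, so periodontitis 1 was above and periodontitis 2 within the control range. Camp had at most 1.81 FPKM and was listed at 0 in periodontitis 3. Ncf1, a subunit of the phagocyte oxidase, had the smallest p of the list, with 5.52 to 7.63 FPKM in controls and 2.35, 5.20 and 3.09 FPKM in periodontitis. Next came Itgb2, an integrin subunit of leukocytes, with 3.95 to 9.30 FPKM in controls and 1.66, 6.13 and 3.61 FPKM in periodontitis. The summed FPKM of 10 macrophage genes was 277 to 439.6 in controls and 157.5, 330.4 and 257.9 in periodontitis 1 to 3. By smallest p that list was led by Tyrobp, a myeloid signalling adaptor, with 25.1 to 27.6 FPKM in controls and 18.9, 21.8 and 19.9 FPKM in periodontitis. Cx3cr1, a chemokine receptor, followed with 1.34 to 2.02 FPKM in controls and 1.92, 3.49 and 3.21 FPKM in periodontitis. The part of infiltrating cells in the calprotectin values was not tested.

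Epithelial markers were set beside S100a9 in the same way, and they did not all share 1 order of the libraries. The median of 17 cornified and suprabasal genes, as a difference from the control mean in log2(FPKM + 1), reached 1.22, 0.33 and -1.11 in periodontitis 1 to 3. The control medians ran from -0.37 to 0.33. S100a9 stood at 1.22, 2.56 and -0.60 on the same scale. Of these genes, 17 of 17 were highest in periodontitis 1 (27.8% of all tested genes) and 0 in periodontitis 2, where S100a9 peaked. Their levels in periodontitis 2 differed. Krt10 was above all controls there (331.6 FPKM against 129.4 to 230.7), while Krt76 was within the control range (235.5 FPKM against 217.4 to 675.8). The stress keratins Krt16 and Krt17, which keratinocytes make after injury, were highest in periodontitis 1, at 1248 and 1766 FPKM. In periodontitis 2 they had 340 and 846 FPKM, within the control ranges of 242 to 603 and 752 to 1002 FPKM. Of 9 basal epithelial genes, 5 were highest in periodontitis 1 and 3 in periodontitis 2, as S100a9 was. These 3 were Col17a1, a hemidesmosomal collagen, and the integrin subunits Itga6 and Itgb4. Col17a1 had 81.4 to 93.1 FPKM in controls and 73.8, 112.6 and 61.6 FPKM in periodontitis 1 to 3. The median difference of the 9 basal genes from the control mean was 0.28, 0.12 and -0.43 in periodontitis 1 to 3. The part of the epithelial makeup in the calprotectin values was not tested.

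**Figure D3:**
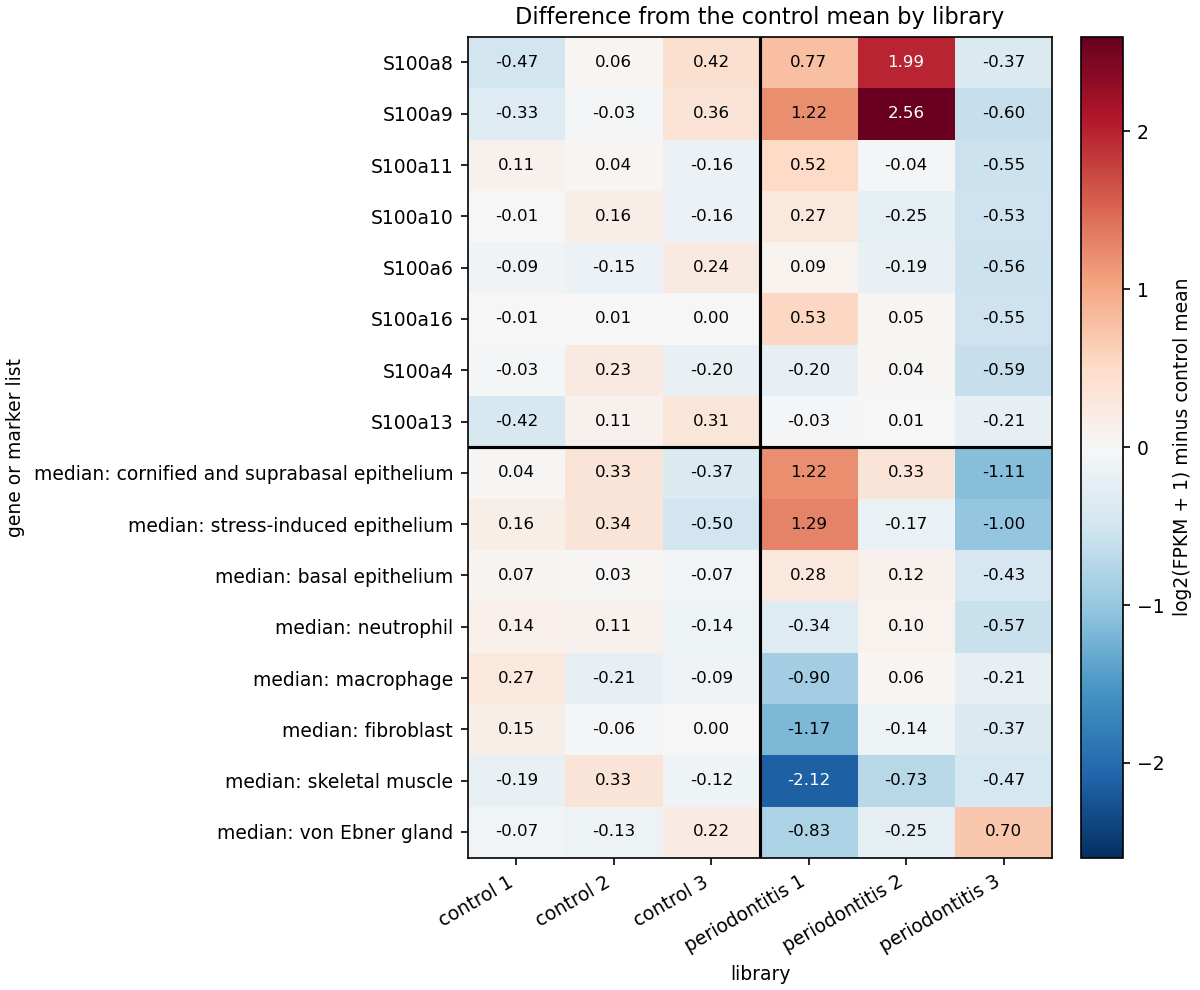
Difference of each library from the control mean in log2(FPKM + 1), for the 8 S100a genes (above the line) and as the median of each marker list (below). Red is higher and blue lower; S100a9 is at 2.56 in periodontitis 2, where the cornified median is 0.33, and the cornified median is at 1.22 in periodontitis 1.

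S100a11, which binds annexin A1 and takes part in membrane repair and keratinocyte differentiation, had the highest mean level of the 8 S100a genes in both groups (193866951 to 193868502, plus strand). It had 598, 569 and 494 FPKM in controls and 790, 536 and 376 FPKM in periodontitis 1 to 3. Periodontitis 1 was above and periodontitis 3 below all controls, with periodontitis 2 among them. The means were 553 ± 53.2 and 568 ± 209 FPKM (SD, n = 3), with a log2 difference of -0.02 ± 0.30 (SE, limma adjusted p = 1.0). RefSeq lists 5 pseudogenes and 2 protein-coding copies named after S100a11, and 1 pseudogene of S100a10. Reads of these copies could be divided between loci, so both levels are uncertain to that extent.

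S100a10, the partner of annexin A2, had 416, 468 and 375 FPKM in controls and 503, 352 and 289 FPKM in periodontitis 1 to 3 (193892589 to 193901236, plus strand). Here too periodontitis 1 was highest, while both other periodontitis libraries were below all controls. The log2 difference was -0.17 ± 0.26 (SE, limma adjusted p = 1.0). S100a16 (189922996 to 189928848, plus strand) was the most even S100a gene among controls, with 248, 253 and 250.004 FPKM. Its periodontitis values were 362, 259 and 171 FPKM, and all 3 lay outside the narrow control range, on both sides of it. The means were 250.3 ± 2.15 and 264 ± 95.3 FPKM (SD, n = 3), with a log2 difference of 0.01 ± 0.28 (SE, limma adjusted p = 1.0). Equal means thus went with a spread of 1.02-fold among controls and 2.11-fold in periodontitis.

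The relation of each S100a gene to the cornified list was computed across the 6 libraries, and none of the relations passed adjustment. Differences between the genes in this relation were not tested. Over 6 libraries Pearson's r with the cornified median was 0.96 for S100a11 (exact permutation p = 0.0153, adjusted p = 0.122), 0.95 for S100a16 (p = 0.0139, adjusted p = 0.122) and 0.87 for S100a10 (p = 0.0292, adjusted p = 0.133). Spearman's rho was 0.83, 0.89 and 0.83 (exact permutation p = 0.0583, 0.0333 and 0.0583, with adjusted p of 0.156, 0.133 and 0.156). Without periodontitis 1 and 3, the farthest libraries on the cornified scale, r was 0.57, 0.63 and 0.28, so the relations were weaker without them. Leaving out the ends of a scale tends to lower r by itself, and few libraries remain. These values and those below without the same libraries therefore cannot decide whether a relation holds. For S100a8 and S100a9 r was 0.48 and 0.57 (exact permutation adjusted p = 0.474 and 0.404), and rho was 0.49 and 0.60 (exact permutation adjusted p = 0.474 and 0.404). Without the same 2 libraries r was 0.32 and 0.37. The 16 coefficients of the 8 genes were adjusted together. S100a13, S100a4 and S100a6 had r of 0.13, 0.57 and 0.54 and rho of 0.14, 0.43 and 0.26, with exact permutation adjusted p of 0.404 to 0.846, and r of -0.30, 0.89 and -0.97 without these libraries.

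As deposited, 6 of the 8 S100a genes and 39.4% of all tested genes were lowest in periodontitis 3. When each library was rescaled to the sum of all genes other than 13 gland and muscle genes, 4 of the 8 and 20.9% of all tested genes were lowest there. S100a11 in periodontitis 3 was then 0.819-fold of the control mean (0.680-fold as deposited) and S100a16 was 0.821-fold (0.684-fold as deposited). S100a9 in periodontitis 2 stayed at 5.89-fold and S100a8 at 3.87-fold. On that scale r with the cornified median was 0.92 for S100a11, 0.87 for S100a16 and 0.63 for S100a10 (exact permutation adjusted p = 0.4, 0.4 and 0.467), and rho was 0.77, 0.60 and 0.54. S100a8 and S100a9 had r of 0.36 and 0.50 there, and rho of 0.66 each, so by rho they stood above S100a16 and S100a10. S100a4, S100a6 and S100a13 had r of 0.04, -0.01 and -0.36 and rho of 0.09, 0.26 and -0.43. Without periodontitis 1 and 3, r on that scale was 0.13 for S100a11, -0.40 for S100a16 and -0.12 for S100a10, against 0.39 for S100a8, 0.44 for S100a9, 0.84 for S100a4, -0.92 for S100a6 and -0.33 for S100a13.

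S100a6, also called calcyclin, had 353, 339 and 442 FPKM in controls and 399, 328 and 254 FPKM in periodontitis (190007216 to 190008511, plus strand). S100a4, known from fibroblasts and motile cells, had 81.9, 98.0 and 72.8 FPKM in controls and 72.4, 85.7 and 55.1 FPKM in periodontitis (189997129 to 189999604, plus strand). Both overlapped between the groups, with log2 differences of -0.22 ± 0.24 and -0.25 ± 0.22 (SE, limma adjusted p = 1.0 for both). The fibroblast list, with a median of -1.17 in periodontitis 1 and 8 of its 8 tested genes lowest there, did not have the same order as S100a4 and S100a6, which in periodontitis 1 stood at -0.20 and 0.09. S100a13 was the lowest S100a gene of the 8, with 12.2, 18.1 and 20.9 FPKM in controls and 16.3, 16.8 and 14.2 FPKM in periodontitis (189906022 to 189912516, plus strand). Its periodontitis values fell inside the control range, and its log2 difference was -0.08 ± 0.22 (SE, limma adjusted p = 1.0).

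FPKM is per transcript length, so levels can be ordered between genes. In controls the order of mean FPKM was S100a11 (553), S100a10 (419.8), S100a6 (378), S100a16 (250.3), S100a4 (84.2), S100a8 (62.4), S100a9 (43.2) and S100a13 (17.1). The neighbours S100a10 and S100a6, S100a4 and S100a8, and S100a8 and S100a9 had overlapping control ranges, while the other neighbours did not overlap. In periodontitis S100a8 (131) and S100a9 (128) stood above S100a4 (71.1). That change of order held in periodontitis 1 and 2, and in periodontitis 3 S100a4 was the highest of these 3 genes. In periodontitis the ranges of all neighbours overlapped except those of S100a4 and S100a13 (15.8). Within each of the 3 periodontitis libraries, however, S100a11, S100a10, S100a6, S100a16 and S100a8 kept this order. Likewise S100a8 was above S100a9 within each of the 3 controls.

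Promoter sequences are shown for S100a9 and for S100a11 and S100a16, since these genes moved in different orders across the libraries. The RefSeq table (build GRCr8) held 7 of the 9 named genes, S100a13, S100a14, S100a16, S100a4, S100a6, S100a9 and S100a11. Each line gives the 250 bases before the transcription start, 5′ to 3′ in the direction of the gene, from chr2:178490623-178490872 (minus strand), chr2:181874882-181875131 (plus strand) and chr2:178313736-178313985 (plus strand). Capitals mark matches to the motifs named after the sequences.
S100a9: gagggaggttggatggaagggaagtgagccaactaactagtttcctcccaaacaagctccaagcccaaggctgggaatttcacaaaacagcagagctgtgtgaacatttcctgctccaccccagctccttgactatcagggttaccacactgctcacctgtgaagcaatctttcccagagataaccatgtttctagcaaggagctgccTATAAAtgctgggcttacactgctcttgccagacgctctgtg
S100a11: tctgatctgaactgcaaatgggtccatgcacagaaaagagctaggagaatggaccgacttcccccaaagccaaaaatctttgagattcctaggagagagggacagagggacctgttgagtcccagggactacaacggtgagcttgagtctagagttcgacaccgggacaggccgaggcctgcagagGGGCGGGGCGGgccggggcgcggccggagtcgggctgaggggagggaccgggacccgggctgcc
S100a16: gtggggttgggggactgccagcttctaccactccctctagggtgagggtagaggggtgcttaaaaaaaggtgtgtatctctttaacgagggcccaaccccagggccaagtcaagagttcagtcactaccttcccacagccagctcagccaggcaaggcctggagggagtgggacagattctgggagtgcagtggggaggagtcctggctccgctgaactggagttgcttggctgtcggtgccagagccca

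The motifs searched on both strands were the TATA box (TATAAA), the CCAAT box (CCAAT), the GC box (GGGCGG), AP-1 (TGANTCA), C/EBP (TTGCNNAA), STAT (TTCNNNGAA) and the NF-kappaB site by its usual consensus. The S100a9 stretch held 1 TATA box, from base -42 to base -37 before the start. Such a match was found in 12.9% of 33469 promoter stretches of this length, and among the 7 S100a stretches also in S100a4 (-31 to -26). The S100a11 stretch held 2 overlapping GC boxes (-64 to -59 and -59 to -54), a motif found in 30.5% of all stretches, and 1 each was found in S100a6 and S100a13. S100a13 also held 1 CCAAT match (34.0% of all). The S100a16 and S100a14 stretches held no match to any of the motifs. AP-1, C/EBP, STAT and NF-kappaB matches were in none of the 7 stretches, against 6.34%, 9.22%, 7.67% and 6.33% of all. The G and C share was 50.4% for S100a9, 62.0% for S100a11 and 59.2% for S100a16, beside a median of 51.2%. A match of letters is a description and not a bound site.

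Other genes of the S100 family were read for comparison. Of 8 further symbols, 5 were analysed here and 3 passed the filter, of which 0 passed the test. S100a7a, an epithelial S100 gene of the psoriasin group, had 34.4, 43.5 and 15.1 FPKM in controls and 58.8, 47.1 and 9.33 FPKM in periodontitis. Periodontitis 1 and 2 were above all controls and periodontitis 3 below them. S100a1, known from striated muscle, had 10.7, 10.6 and 15.6 FPKM in controls and 6.86, 12.3 and 18.0 FPKM in periodontitis, with the lowest value where S100a11 was highest. S100b, a marker of Schwann cells, had 17.1, 14.4 and 19.8 FPKM in controls and 5.50, 14.8 and 13.5 FPKM in periodontitis, with a log2 difference of -0.65 ± 0.34 (SE, limma adjusted p = 1.0). The 5 Schwann cell markers summed to 36.1 FPKM in periodontitis 1, against 110.6 to 152.6 FPKM in controls. S100a3 and S100a5 had at most 2.05 FPKM, and S100a5 was listed at 0 in periodontitis 2 and 3.

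The row RGD1562234 carries the RefSeq symbol S100a7l2 and was chosen after its values were seen. It had 687, 1128 and 284 FPKM in controls and 1105, 365 and 379 FPKM in periodontitis 1 to 3, with means of 699.6 and 616 FPKM, above those of S100a11 in both groups. Its control values spread 3.97-fold and overlapped those of periodontitis (log2 difference -0.18 ± 0.60, SE, limma adjusted p = 1.0).

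The partners of S100 proteins did not differ between the groups by the test. Of 12 genes, 12 were tested, 0 passed, 2 had a higher and 10 a lower mean log2 value in periodontitis, and the median was -0.09. Anxa2, which forms a tetramer with S100a10, had 362, 368 and 326 FPKM in controls and 525, 354 and 217 FPKM in periodontitis. The ratio of S100a10 to Anxa2 was 1.15, 1.27 and 1.15 in controls and 0.958, 0.996 and 1.33 in periodontitis. Anxa1, the partner of S100a11, had 688, 582 and 566 FPKM in controls and 799.6, 660.0 and 386 FPKM in periodontitis. The ratio of S100a11 to Anxa1 stayed between 0.812 and 0.988 in all 6 libraries. By smallest p the list was led by Plat, the plasminogen activator that S100a10 can bind (-0.43 ± 0.25), Anxa6 (-0.37 ± 0.26), the growth factor Fgf1, whose export uses S100a13 (-0.35 ± 0.31), and Ppfibp1, which binds S100a4 (-0.11 ± 0.16; log2 differences with SE, limma adjusted p = 1.0 for each). Il1a, an interleukin whose export also uses S100a13, had 12.6 to 13.5 FPKM in controls and 33.4, 19.7 and 3.21 FPKM in periodontitis, with periodontitis 1 and 2 above and periodontitis 3 below all controls.

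The receptors and adaptors of extracellular S100a8 and S100a9 had 9 of 10 genes tested, of which 0 passed, with a median of -0.10. Tlr4, the innate receptor, had 3.20 to 5.84 FPKM in controls and 5.09, 5.62 and 1.77 FPKM in periodontitis. Ager, the receptor for advanced glycation end products, had 1.49 to 2.61 FPKM in controls and 1.98 to 2.24 FPKM in periodontitis. Myd88, the Toll-like receptor adaptor, had 15.9 to 18.4 FPKM in controls and 40.4, 25.5 and 14.1 FPKM in periodontitis, high in the libraries with high S100a9 but higher in periodontitis 1 (log2 difference 0.47 ± 0.34). Bsg, a surface glycoprotein that binds S100a9, was the 1 of 9 tested genes without overlap, against 5.56% of all tested genes. It had 146 to 151 FPKM in controls and 124 to 135 FPKM in periodontitis (-0.19 ± 0.16). Cd36 and Mcam, which can also bind S100a8 and S100a9, had -0.16 ± 0.27 and -0.10 ± 0.18 (SE, limma adjusted p = 1.0 for these 4 genes).

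Of 15 genes known to regulate S100a8 and S100a9, 13 were analysed here and 12 tested. The test called 0, and 7 had a higher and 5 a lower mean log2 value, with a median of 0.01. The groups did not overlap for 2 of the 12 tested, Cebpd and Spi1, against 5.56% of all tested genes. Cebpd, a transcription factor of acute phase and myeloid genes, was higher in all 3 periodontitis libraries than in the controls. It had 10.8 to 15.6 FPKM in controls and 27.6, 17.9 and 29.5 FPKM in periodontitis. Its log2 difference was 0.84 ± 0.24 (SE, limma adjusted p = 1.0), and it was lowest among the periodontitis libraries where S100a9 was highest. Spi1, a myeloid transcription factor, had 3.99 to 4.31 FPKM in controls and 0.619, 3.82 and 2.61 FPKM in periodontitis (-0.75 ± 0.38). Cebpb had a log2 difference of 0.27 ± 0.24 and Il1b one of -0.25 ± 0.23 (SE, limma adjusted p = 1.0 for these 3 genes). Il1rn, the interleukin-1 receptor antagonist of epithelium, had 31.3 to 54.8 FPKM in controls and 110.4, 63.6 and 17.6 FPKM in periodontitis. Stat3 had 34.1 to 39.7 FPKM in controls and 39.6, 48.1 and 29.8 FPKM in periodontitis, so that periodontitis 2 was its highest library, as it was for S100a9.

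The 8 S100a genes were left out of a search for similar patterns among 8947 genes whose mean level reached 5 FPKM. The genes with the pattern most like S100a9 were named by Pearson's r of log2 values over the 6 libraries. They were Camsap1 (0.98), Edn1 (0.98), Egfr (0.97), Trip12 (0.97) and Myo5b (0.97). For S100a8 they were Eef2 (0.98), Alpl (0.98), Kif21a (0.97), Erich1 (0.97) and Bcl2l2 (0.96). The lists shared no gene, although S100a8 and S100a9 had r of 0.987 with each other, above every gene named here. The named genes moved over a much smaller range. Egfr, the epidermal growth factor receptor, had 7.52, 6.90 and 7.50 FPKM in controls and 9.53, 12.2 and 6.50 FPKM in periodontitis. With 6 points and this many genes searched, such values only describe these libraries.

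**Figure D4:**
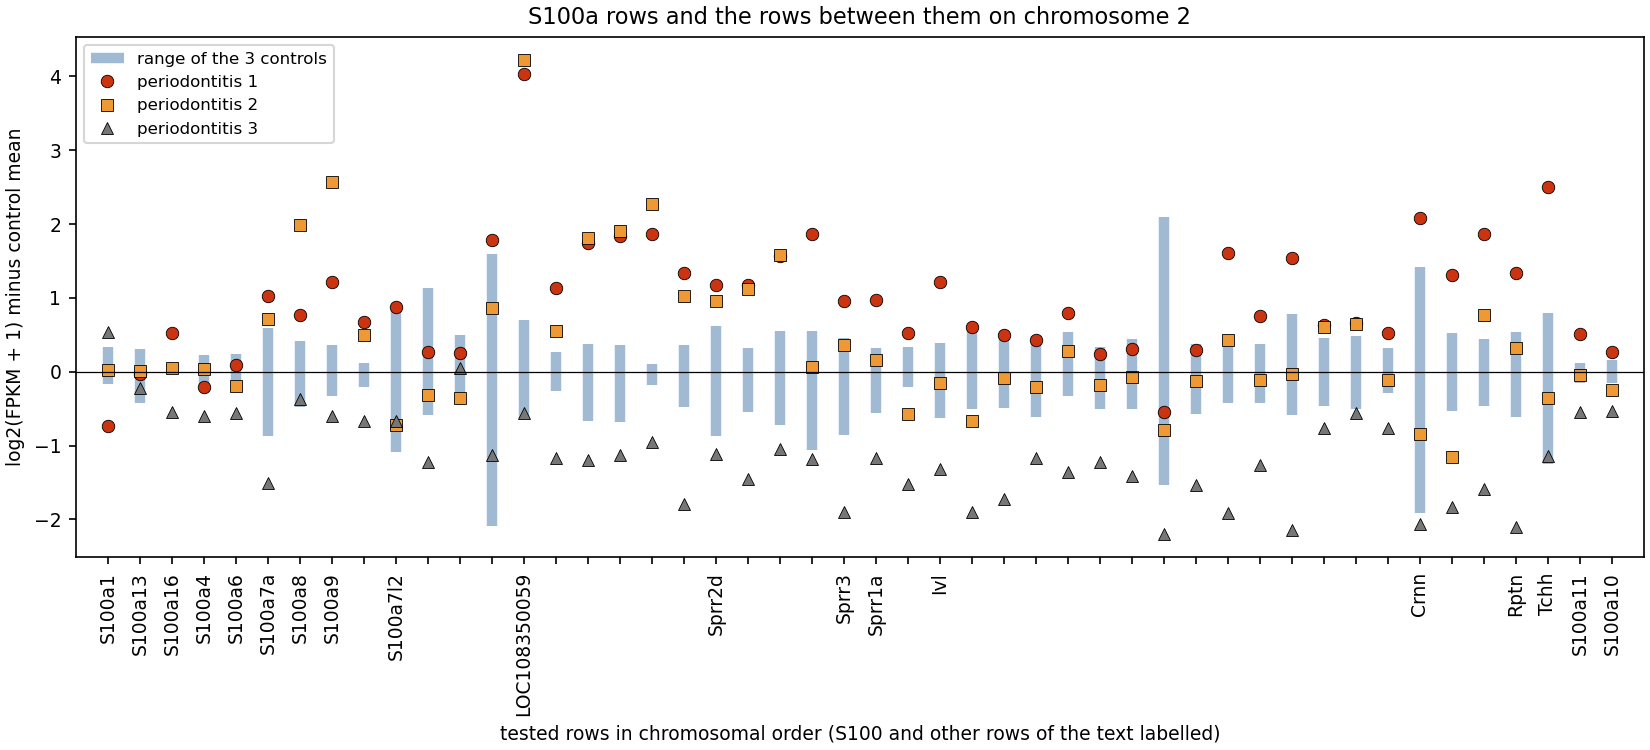
Tested rows of the chromosome 2 block from S100a1 to S100a10, in chromosomal order and evenly spaced, with each periodontitis library as its difference from the control mean in log2(FPKM + 1) and the control range as a blue bar. Periodontitis 3 lies below all controls in 40 of 48 rows, and the share of this over all tested genes was not computed. By a stricter measure, periodontitis 3 was the lowest of all 6 libraries for 39.4% of all tested genes. S100a8 and S100a9 stand out from the neighbouring S100 rows in periodontitis 2.

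The 8 S100a genes lie at both ends of a block of 4.0 Mb on chromosome 2 (189900667 to 193901236) that also holds the genes of the epidermal differentiation complex. The block had 51 rows, of which 48 were tested. Periodontitis 1 was above all controls in 35 of these, periodontitis 2 in 17 and periodontitis 3 below all controls in 40. Among the 8 S100a genes the counts were 5, 3 and 6. Shares over all tested genes were not computed for these counts, so they are not read as a trait of the block. By a stricter measure, periodontitis 3 was the lowest of all 6 libraries for 39.4% of all tested genes. Periodontitis 1 above and periodontitis 3 below all controls was found for 4 of the 8 (S100a9, S100a10, S100a11 and S100a16) and for 27 of the 40 other tested rows, against 24.5% of all tested genes. Periodontitis 1 and 2 above all controls, with periodontitis 3 not, was found for 3 of the 8 (S100a8, S100a9 and S100a16) and for 14 of the 40, against 17.5%. In the fused-type S100 genes of the block, whose proteins join an S100 domain to a long repeat, periodontitis 1 was highest in the 3 tested: Rptn (2299 FPKM against 592 to 1311 in controls), Crnn (295 against 17.5 to 185) and Tchh (653 against 47.3 to 199.5). In periodontitis 2 these 3 had 1134, 37.8 and 89.2 FPKM, within their control ranges, unlike S100a8 and S100a9.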

How the data were processed

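The authors deposited 1 table of FPKM values per library, per the file headers. The submitters' processing notes list FastQC, cutadapt, HISAT2 and StringTie, with no versions, and the mouse build mm10. The gene identifiers are those of rat, so positions are printed as the tables state them. The sources used here give no read counts or strand setting. Groups came from the disease label and replicate numbers from the titles.

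Genes reaching 1 FPKM in 3 or more libraries (13154, with 1251 left out) were fitted as log2(FPKM + 1) in limma 3.58.1 (R 4.3.3), with a mean-variance trend and no term besides group. Two-sided p-values were adjusted by Benjamini-Hochberg across the 13154 genes, with 0.05 as the threshold. The fit was tested on 20 simulated data sets with 200 changed genes each. The changed genes were drawn from those with a mean above about 5 FPKM, and noise was drawn for each gene separately. The fit recovered 35.9% of 2-fold, 80.4% of 4-fold and 92.4% of 8-fold changes, so most simulated 2-fold changes were missed. Shifts shared by many genes, as between tissue mixtures, were not simulated. These rates cover genes of differing spread, and no rate was computed for S100a8 or S100a9. Exact permutation tests used Python 3.11.15 and SciPy 1.17.1. The S100a genes, the gene lists and the naming rule were chosen with earlier results of these data known. The rule named all S100a genes and the 4 smallest p of each list of S100 genes, partners, receptors and regulators. Genes of these lists whose role is stated were named too. So were the 5 genes, outside the 8 S100a genes, with patterns most like S100a8 and most like S100a9. The fit was repeated with a block for replicate number, leaving out each library, with other filters, a pseudocount of 0.1, other scalings and no trend.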

Additional observations from a re-analysis of the deposited data

How the results depend on the processing

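No S100a gene passed the threshold in any of 14 alternative fits. Of the 112 values of the 8 genes in these fits, 7 changed sign, none of them called: S100a11 in 3 fits (0.005 when rescaled without gland and muscle genes, 0.03 without control 1, 0.24 without periodontitis 3), S100a16 in 2 (-0.25 without periodontitis 1, -0.01 without periodontitis 2), S100a10 in 1 (0.01 without periodontitis 3) and S100a13 in 1 (0.08 without control 3). S100a8 and S100a9 kept a positive sign, at 0.20 to 1.38 and 0.31 to 1.89 with 1 library left out. The median of the 8 genes ran from -0.26 to 0.12 with 1 library left out and from -0.05 to -0.02 in the other fits. The count of all genes past the threshold (0) was 3 with the replicate number as a block and 1 when rescaled to TPM, and 0 to 1 with 1 library left out (1 without control 1). Replicate numbers were not taken as a pairing: same-numbered libraries deviated from their group means with r of 0.09, 0.03 and 0.46, and for 1 of the 3 numbers the best match was its own. Under the block the ratio of S100a8 to S100a9 kept its difference of -0.26 (exact sign-flip permutation p = 0.5, where 3 pairs cannot go below 0.25), and with 1 library left out the difference ran from -0.51 to -0.10. With the rescaling of the cornified relations, chosen after the data were seen, r turned from 0.54 to -0.01 for S100a6 and from 0.13 to -0.36 for S100a13, and it fell from 0.57 to 0.04 for S100a4. The cause was not tested. No depth was at hand from which to state a limit for low genes.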

Other observations

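Between S100a9 and S100a11 on chromosome 2, a stretch of rows around the small proline-rich gene Sprr2d was high in the same 2 libraries as S100a9. These rows were chosen after their values were seen. Periodontitis 1 and 2 were above all controls, and periodontitis 3 not, in 14 of the 40 tested block rows outside the 8 S100a genes. The same held for 17.5% of all tested genes. LOC108350059 (192147998 to 192148267) had 12.4, 21.7 and 8.08 FPKM in controls and 228.8, 259.7 and 8.51 FPKM in periodontitis 1 to 3, which is 16.3-fold and 18.5-fold the control mean in periodontitis 1 and 2 and 0.605-fold in periodontitis 3. Its log2 difference was 2.56 ± 1.19 (SE, limma adjusted p = 1.0). AABR07012299.1 (192416615 to 192434072) had 5.83 to 7.30 FPKM in controls and 27.0, 36.2 and 2.97 FPKM in periodontitis, with periodontitis 2 highest, as for S100a9. Sprr2d, which encodes a cornified envelope precursor, had 96.9 to 275.6 FPKM in controls and 403.7, 346.3 and 82.3 FPKM in periodontitis. In contrast, Sprr3 and Sprr1a, farther along the block, had 1019 and 1014 FPKM in periodontitis 2, within their control ranges of 440.7 to 1088 and 619.6 to 1142 FPKM. Still farther along, AABR07012331.1 again had periodontitis 1 and 2 above all controls, at 63.8 and 29.3 FPKM against 11.9 to 23.4 FPKM. Reads of near-identical Sprr2 copies can be divided between rows, so the single values are uncertain.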
